A study of Homo sapiens with 16 samples.

Results

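The annexins, a family of calcium-dependent membrane-binding proteins, were followed in 8 established lines of lung cancer, A549, H358, H1437, H460, H23, H661, A427 and H1703, cultured in Matrigel (3D), a basement membrane extract, and on tissue culture plastic (2D). In 3D the cells lay on a thin Matrigel layer under medium with 2% Matrigel, and density and medium were similar in both cultures. There were 8 arrays of 3D cultures and 8 of 2D cultures, 1 for each line in each culture, so that lines and not repeated cultures are the replicates. Per the labels' protocols, 200 ng of total RNA went into labelling. The array was an Affymetrix U133 Plus 2.0, which reads a transcript through probe sets, groups of short oligonucleotides. Of its 54675 probe sets, 19 were annotated to 1 gene symbol that was ANXA1, ANXA2, ANXA3, ANXA4, ANXA5, ANXA6, ANXA7, ANXA10, ANXA11 or ANXA13, and these 19 probe sets of 10 genes are described here, out of 19775 genes named by 1 symbol. On GRCh38, ANXA3, ANXA5 and ANXA10 lie on chromosome 4, ANXA7 and ANXA11 on chromosome 10, ANXA1 on chromosome 9 and ANXA2 on chromosome 15.

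Annexins are soluble proteins that bind acidic phospholipids when calcium rises. They share a conserved core of repeats that holds the calcium sites, and differ in an amino-terminal tail that binds partners such as S100 proteins. They are known for roles in membrane repair, vesicle traffic, exocytosis and, for ANXA1, resolution of inflammation, and several are abundant in lung epithelium.

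Values are log2 ratios of an array to a reference of the probe set's own. For 16 of the 19 probe sets that reference was the median over the 16 arrays. The other 3 (the probe sets of ANXA10 and ANXA13, and 244250_at of ANXA6) had a median under their reference, here called dim, so no fit was read for them, and 8 of the 10 genes kept a tested probe set. Levels can be compared between arrays for a probe set, and not between genes. The family was taken up after the 3D minus 2D differences and the differences between lines had been seen, so the values of its members are given as a description, with no p-value.

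Promoters of 9 members were matched in RefSeq (GRCh38.p14), in windows that run from 250 bases before to 50 bases after a gene's start. The following 4 are shown because ANXA3, ANXA1 and ANXA10 were among the members that varied most between lines and ANXA5 among those that varied least. Capitals mark matches on either strand to TATAAA (the TATA box), CCAAT or GGGCGG (the GC box), which 11.5%, 34.6% and 45.0% of all 35116 promoter windows of this length hold.
ANXA1, chr9:73151615-73151914, + strand: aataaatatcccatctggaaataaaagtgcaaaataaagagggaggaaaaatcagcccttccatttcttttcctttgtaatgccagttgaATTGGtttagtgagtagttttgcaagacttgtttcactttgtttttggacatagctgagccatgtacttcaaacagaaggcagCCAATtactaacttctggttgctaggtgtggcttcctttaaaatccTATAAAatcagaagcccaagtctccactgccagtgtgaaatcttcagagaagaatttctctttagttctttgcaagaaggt
ANXA3, chr4:78551520-78551819, + strand: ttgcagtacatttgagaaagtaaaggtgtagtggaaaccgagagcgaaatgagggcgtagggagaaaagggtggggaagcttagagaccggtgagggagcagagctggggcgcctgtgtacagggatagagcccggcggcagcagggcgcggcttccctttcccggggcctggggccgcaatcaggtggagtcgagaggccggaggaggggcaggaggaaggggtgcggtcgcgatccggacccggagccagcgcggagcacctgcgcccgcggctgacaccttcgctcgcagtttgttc
ANXA10, chr4:168092287-168092586, + strand: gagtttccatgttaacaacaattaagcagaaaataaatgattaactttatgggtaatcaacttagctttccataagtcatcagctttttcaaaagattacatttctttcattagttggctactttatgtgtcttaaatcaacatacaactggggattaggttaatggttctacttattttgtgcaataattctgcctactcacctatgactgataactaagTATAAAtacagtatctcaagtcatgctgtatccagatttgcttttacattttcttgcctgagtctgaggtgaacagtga
ANXA5, chr4:121696931-121697230, - strand: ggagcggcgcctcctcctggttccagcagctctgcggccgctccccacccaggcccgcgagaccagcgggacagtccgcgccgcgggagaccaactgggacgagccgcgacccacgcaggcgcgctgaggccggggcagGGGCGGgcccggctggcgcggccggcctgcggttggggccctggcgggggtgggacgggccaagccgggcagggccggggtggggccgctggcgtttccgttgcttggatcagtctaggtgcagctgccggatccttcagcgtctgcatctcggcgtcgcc
The ANXA1 and ANXA10 windows each held 1 TATAAA, at positions 220 and 222 counted from the 5′ end (the start lies at 251), and 0 CpG dinucleotides, as did 3.96% of all windows. ANXA3 had 25 CpG and none of the 3 motifs, and ANXA5 had 36 CpG and 1 GGGCGG, against a median of 14 CpG over all windows. The 2 windows of ANXA6, another member that varied widely, held 10 and 25 CpG, and those of ANXA4, highest in A549, 44 and 27. None of these held a TATAAA. The window of ANXA2, which varied little, held 32 CpG and 1 TATAAA, also at position 220, and 1 ANXA11 window held a TATAAA at 190. Among the windows named here, both widely and little varying members had a TATAAA, and widely varying members had low and high CpG counts. A link of either to the variation between lines was not tested. A match describes the letters of the window and not binding.

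ANXA1, a glucocorticoid-inducible ligand of formyl peptide receptors, was read by probe sets 233011_at and 201012_at, and they gave different differences between the cultures. On 233011_at the ratio had a lowest, median and highest value of -3.52, 1.67 and 3.33 in 3D cultures, and of -2.91, -0.72 and 2.13 in 2D cultures. The ranges overlapped, with H1437 lowest in both cultures. The difference was 1.84 ± 1.49 (log2, SD, n = 8 lines), 3.59-fold, and it was above 0 in 7 of 8 lines. H358 had the largest difference at 3.95, followed by H661 at 3.09, A549 at 2.69, H460 at 2.0, H23 at 1.85 and H1703 at 1.60. A427, the line with the highest ANXA1 in 2D, stood at 0.18, and H1437 at -0.61.

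On 201012_at, ANXA1 had -4.69, 0.13 and 1.42 in 3D cultures and -2.56, -0.01 and 1.46 in 2D cultures as lowest, median and highest. Its difference was -0.26 ± 0.85, above 0 in 3 of 8 lines, and 0.0029 without H1437, where it was -2.13. In every one of the 8 lines 233011_at gave the higher difference, by between 0.22 and 3.32. The probe sets nevertheless placed the lines in nearly the same order, with a correlation of 0.97 over the 8 line means (each the mean of both cultures) and 0.79 over the 16 arrays, which share lines. Both put H1437 lowest and A427 highest, though A427 was only 0.74 above A549 on 201012_at and 0.75 on 233011_at. The part of the transcript that each probe set reads is not given in the sources used here.

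**Figure D1:**
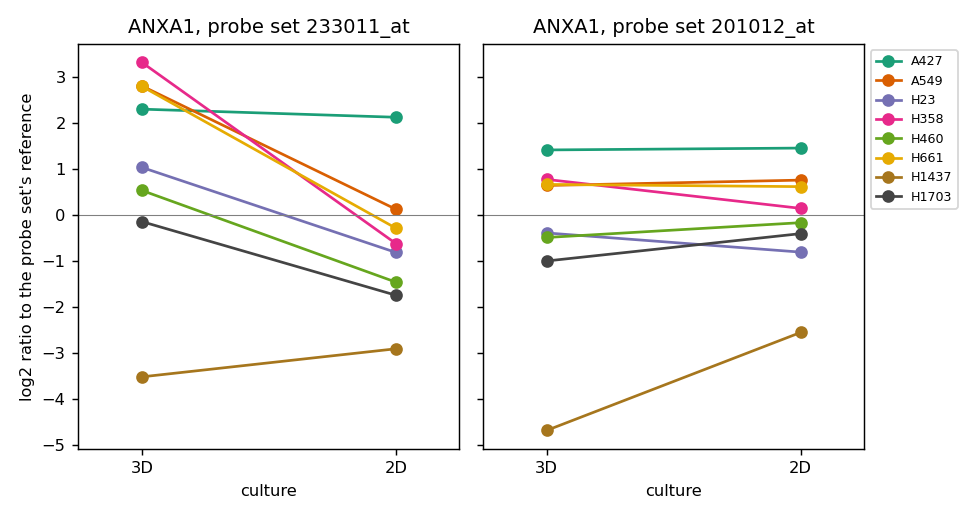
ANXA1 in 8 lines on probe set 233011_at (left) and 201012_at (right). Each point is 1 array and each line joins the 3D and the 2D array of a cell line; the vertical axis is the log2 ratio to the probe set's reference. On the left 7 of 8 lines lie higher in 3D, on the right 3 of 8, and H1437 is lowest in both.

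Of the 16 tested annexin probe sets, 1 passed the limma fit for 3D minus 2D (Benjamini-Hochberg over 34727 probe sets), where 7.10% of all those tested passed. By direction, 1 was higher and 0 lower in 3D, with 2.66% higher and 4.44% lower among all (5 of the 16, or 31.25%, had an unadjusted p under 0.05, and 26.1% of all tested probe sets). The one higher was 233011_at of ANXA1, whose difference was among the values the family was chosen on, so nothing is read from the count. Among the 16, 6 had a mean above 0 and 10 below, with a median of -0.05, and the median over all was -0.01. The 3D and 2D ranges overlapped for all 19 probe sets, and failed to overlap for 0.0494% of the 54675 on the array. Control probe sets for 18S rRNA differed by -1.15 ± 1.06 on average, below 0 in 8 of 8 lines. With their level as a covariate the ANXA1 difference on 233011_at was 1.3 and was no longer called, and 2 of 34727 probe sets were called in all. As 18S was lower in 3D in every line, this covariate overlaps with culture. Fewer calls follow from that overlap alone, and a part of 18S in the differences was not tested. As RNA came from whole cultures, a change in the share of cells that express a gene and a change in its level per cell cannot be told apart.

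ANXA5, which binds exposed phosphatidylserine and is the reagent that marks dying cells, had -0.75, -0.06 and 0.14 in 3D cultures and -0.52, 0.16 and 1.01 in 2D cultures as lowest, median and highest. Its difference was small and of one sign in most lines: -0.38 ± 0.30, below 0 in 7 of 8 lines. H661 had -0.90 and H358 -0.64, while A549 had 0.10. ANXA6, a membrane and endosome protein with a duplicated core, had -4.20, -0.25 and 0.07 in 3D cultures and -3.30, 0.05 and 0.99 in 2D cultures on 200982_s_at. It differed by -0.40 ± 0.48, below 0 in 6 of 8 lines, and again H661 (-1.27) and H358 (-0.90) had the lowest differences. The dim probe set of ANXA6 stayed between -0.78 and -0.32 on all arrays.

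ANXA2, which with S100A10 forms a cell-surface complex that binds plasminogen, differed little between cultures. Its 4 probe sets had means between -0.07 and -0.01, each with 4 of 8 lines above 0, and the largest difference of a single line was -0.61, in H1437 on 213503_x_at. The 3 with IDs ending in _x_at (201590_x_at, 210427_x_at and 213503_x_at), a suffix that marks probes shared with other transcripts, correlated with each other at 0.998 to 0.999 over the 16 arrays. They also correlated at 0.995 to 0.996 with the probe set of the pseudogene ANXA2P2, so the gene and its copies cannot be separated on them. The remaining one, 1568126_at, correlated with the 3 at 0.61 to 0.62.

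ANXA7, known as synexin for its role in granule fusion, and ANXA11, which has a long disordered tail and tethers RNA granules to lysosomes, were each read by several probe sets. For ANXA7, 209860_s_at was below 0 in 8 of 8 lines at -0.18 ± 0.15, and 201366_at above 0 in 6 of 8 at 0.08 ± 0.21. The signs of the 2 agreed in only 2 of 8 lines. For ANXA11, 228727_at had -0.44, 0.39 and 2.32 in 3D cultures and -0.88, -0.17 and 2.33 in 2D cultures, a difference of 0.43 ± 0.45. It was above 0 in 7 of 8 lines, with H358 at 1.04, H1437 at 0.98 and A549 lowest at -0.11. The other ANXA11 probe sets, 206200_s_at and 214783_s_at, gave 0.03 ± 0.24 and -0.11 ± 0.28, each with 4 lines above 0. ANXA1, ANXA7 and ANXA11 each had probe sets whose means differed in sign, while the 2 of ANXA4 correlated at 0.98 over the 16 arrays and at 0.99 over the 8 differences.

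**Figure D2:**
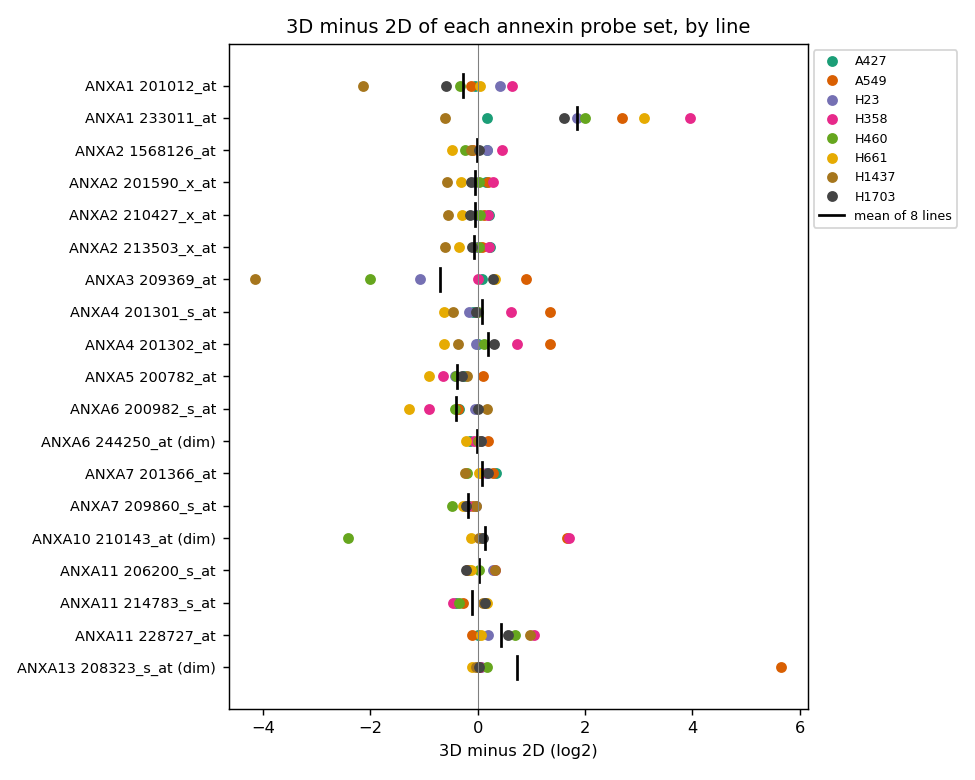
The difference 3D minus 2D (log2) for each of the 19 annexin probe sets, with 1 point per cell line and a bar at the mean of the 8 lines. Most points lie within 1 of 0; H1437 stands low for ANXA3 (-4.15) and for ANXA1 201012_at (-2.13), A549 high for ANXA13 (5.66), and 233011_at of ANXA1 lies above 0 in 7 lines.

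ANXA3, an annexin of neutrophil granules and of several epithelia, had the widest differences between lines in the family. Its lowest, median and highest ratios were -1.35, -0.61 and 7.89 in 3D cultures and -1.67, 2.00 and 7.88 in 2D cultures. Averaged over both cultures, H358 stood at 7.89, A549 at 5.38, H460 at 4.53 and H1437 at 1.54, and H23, A427, H1703 and H661 lay between -1.51 and -0.15. The mean difference of 3D minus 2D was -0.70 ± 1.67, and -0.21 without H1437. H1437 had -0.53 in 3D and 3.61 in 2D, a difference of -4.15, and H460 (-2.0) and H23 (-1.07) were also lower in 3D. A549 was higher by 0.90, and in H358 the arrays differed by 0.01.

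ANXA4, which is abundant in secretory epithelia, stood apart in A549. On 201302_at it had -1.28, -0.00 and 3.99 in 3D cultures and -0.82, -0.04 and 2.65 in 2D cultures as lowest, median and highest, and both of the highest values were those of A549. The difference was 1.34 in A549 and 0.74 in H358, and -0.64 in H661. Over the 8 lines the mean was 0.18 ± 0.62, and 0.02 without A549. The second probe set, 201301_s_at, gave 1.34 in A549 and a mean of 0.07 ± 0.63, which was -0.11 without A549.

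ANXA10, known from the gastric epithelium, and ANXA13, known from the intestinal epithelium, were dim in most lines. ANXA10 had 6.71 in 3D and 5.05 in 2D in A549, and 0.35 in 3D and 2.77 in 2D in H460. H358 had 0.91 in 3D and -0.79 in 2D, and the 5 remaining lines lay between -0.85 and -0.66 in both cultures. A549 was higher in 3D by 1.67, and H460 differed by -2.41. The 2D value of H358 lay under the reference, level with those 5 lines, so no size is given to its difference. ANXA13 had 6.37 in 3D and 0.71 in 2D in A549, a difference of 5.66, while its other 14 arrays lay between -1.20 and -0.92. With 1 array per line and culture, none of these differences within a line has a replicate check, and values under the reference of a dim probe set carry no order.

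**Figure D3:**
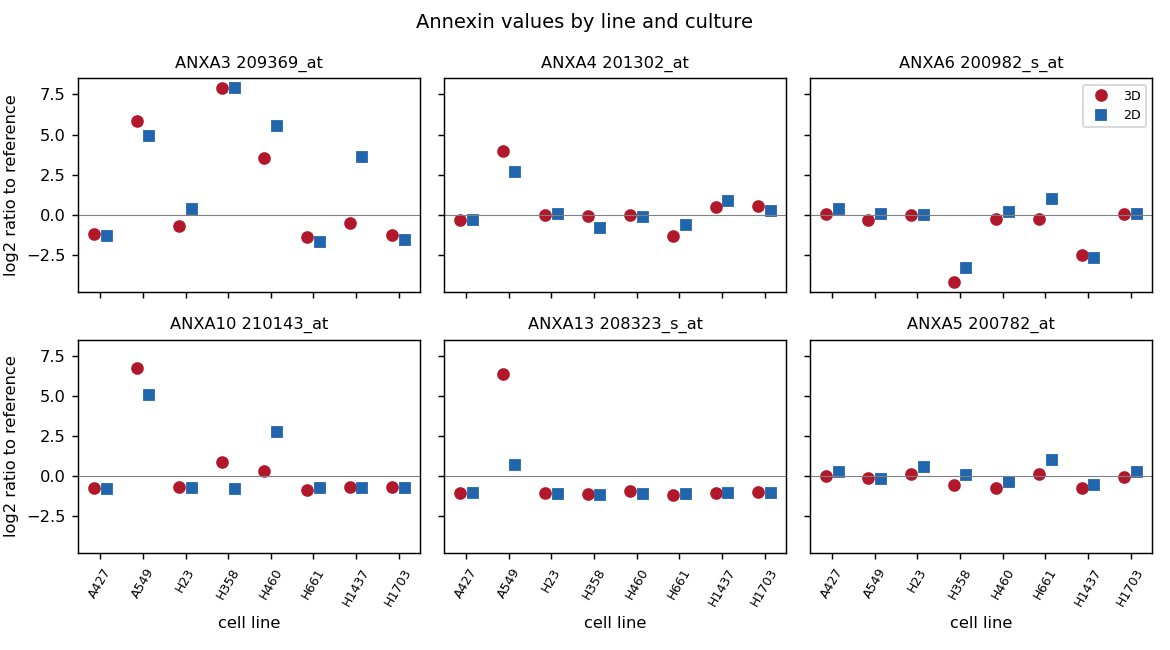
Values of 6 annexin probe sets by cell line, as the log2 ratio to the probe set's reference; circles are 3D arrays and squares 2D arrays, 1 array each. ANXA3 is highest in H358, ANXA4, ANXA10 and ANXA13 in A549, ANXA6 is low in H358 and H1437, and ANXA5 varies little.

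Several annexins differed widely between lines. All 16 tested annexin probe sets passed limma's F test for the line, where the 2 cultures of a line serve as its replicates, and so did 76.1% of all tested probe sets, so nothing is read from that count either. The SD of the 8 line means had a median of 0.98 over the 16 annexin probe sets and 0.55 over all tested probe sets. The family was taken up with these line differences known, and the 16 probe sets are 8 genes. The spreads and their ranks are therefore a description, and nothing is read from the comparison with all probe sets. ANXA3 had 3.62, above 99.6% of tested probe sets. The probe sets of ANXA1 had 1.76 and 1.55 and that of ANXA6 1.54, above 93.3%, 91.3% and 91.3%. ANXA5 had 0.42 and the ANXA2 probe sets 0.40 to 0.52, below the median of all.

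The order of the lines differed between members. For ANXA6 the means were -3.75 in H358 and -2.61 in H1437, and the other 6 lines lay between -0.14 and 0.35, where each gap between neighbours was under the residual SD of 0.34 (the standard error of a difference between line means). For ANXA1 on 201012_at, H1437 stood at -3.62 and the next line, H1703, at -0.70. H1703, H23 and H460 (-0.70 to -0.33) were separated by gaps under the residual SD of 0.60, as were H358, H661 and A549 (0.46 to 0.70). A427 was highest at 1.44, by a gap of 0.74 over A549, little more than that SD. On 233011_at the gap of 0.75 between A549 and A427 was under the residual SD of 1.05, so the top place is not resolved on either probe set. A gap just over the residual SD is only about 1 standard error and does not settle an order. For ANXA3 the gap of 0.86 between H460 and A549 was under the residual SD of 1.18. For ANXA4 on 201302_at, A549 at 3.32 was followed by H1437 at 0.70, and the lines from H358 up to H1437 were separated by gaps under the residual SD of 0.44. ANXA11 was highest in H1703 and A549 on all 3 probe sets, at 2.04 and 2.28 on 228727_at, and H23 was lowest on each. On 228727_at, however, H23 lay only 0.07 below A427, under the residual SD of 0.32, so its lowest place is not resolved there. ANXA7 was lowest in H358 on both probe sets (-0.91 and -0.87). ANXA5 ran from -0.62 in H1437 to 0.56 in H661, with 5 of 7 gaps under the residual SD of 0.21.

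**Figure D4:**
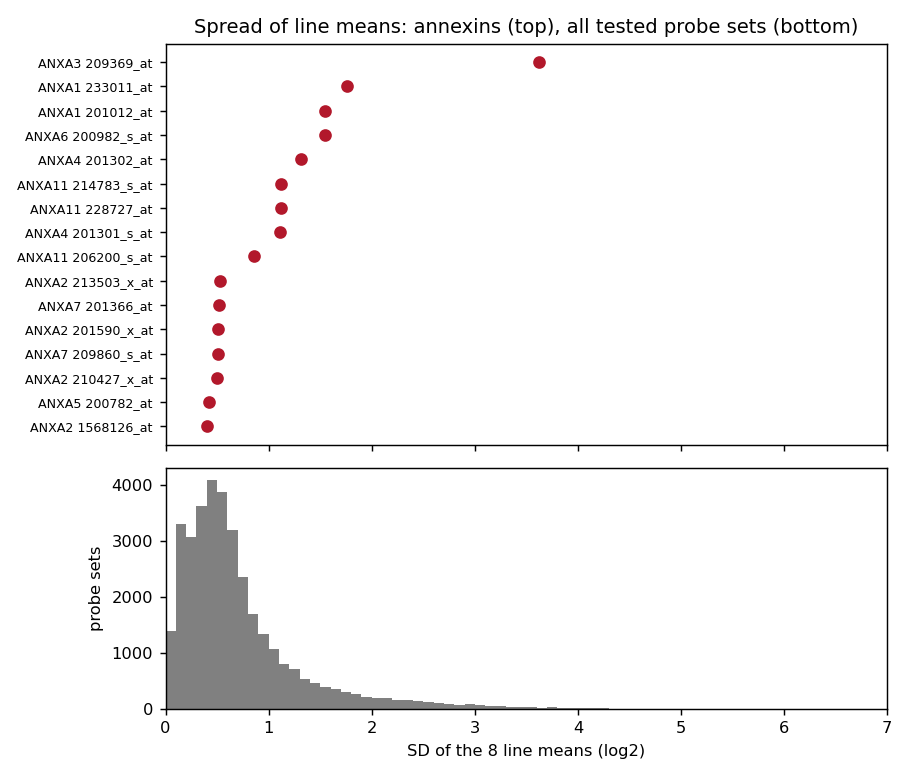
SD of the 8 line means (log2) of the 16 tested annexin probe sets (points, top) and of all 34727 tested probe sets (histogram, bottom). ANXA3 lies at 3.62 and the ANXA2, ANXA5 and ANXA7 probe sets between 0.40 and 0.52.

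Seen line by line, the annexins leaned to different sides. In H358, 12 of 16 tested probe sets were higher in 3D, with a median of 0.25, where 52.5% of all tested probe sets were higher and their median was 0.02. In H1437, 12 of 16 were lower in 3D, with a median of -0.30, where 53.9% of all were higher with a median of 0.02. The 16 are 8 genes, and all 4 ANXA2 probe sets lay on the larger side in both lines. With 1 probe set per gene, 6 of 8 genes were higher in H358 and 6 of 8 lower in H1437. By this count these lines did not stand apart, as H1703 also had 6 of 8 higher and H460 6 of 8 lower. The count depends on the probe set taken and on values near 0. In H1703 ANXA6 had 0.0015, and ANXA2 had 0.02 where 201590_x_at had -0.12. In H460 ANXA2 had -0.24 where 201590_x_at had 0.02. In H358 ANXA3 had 0.01, and ANXA7 had 0.06 where 209860_s_at had -0.18. Over the 16 probe sets H1703 had 8 higher and H460 had 9 lower. The 18S difference was -0.81 in H358 and -0.08 in H1437, and its part in these counts was not tested. H661 had a median of -0.28 and A427 one of 0.0042. In A427 none of the 19 probe sets differed by more than 1, and in A549 5 did.

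Among the members' representative probe sets, ANXA4 and ANXA11 were the most alike over the 16 arrays (r = 0.74) and ANXA3 and ANXA6 the most opposed (r = -0.59); the arrays share 8 lines, so these are descriptions. Over all other genes, ANXA6 was most like CDC27 (r = 0.96), GJC1 (0.95) and DENND5A (0.95). ANXA3 was most like SAMD9 (0.95), GLIS3 (0.95) and SNX5 (0.91), and ANXA4 most like BOC (0.94), FRMD4A (0.94) and TSPAN14 (0.93). For ANXA5 the nearest genes were CCNA2 (0.93), CDCA8 (0.91) and CDC20 (0.90). ANXA1 on 201012_at was nearest to HEG1 (0.91), TUSC3 (0.91) and PPP2R5B (0.89). ANXA2 on 1568126_at was nearest to LINC01234 (0.92), RBBP9 (0.90) and MYO10 (0.90). ANXA7 was nearest to NIPA2 (0.93), GHITM (0.92) and GLA (0.92), and ANXA11 on 228727_at to YWHAG (0.93), FAM204A (0.91) and ALDH3A2 (0.91).

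Genes listed beside the annexins were tested in the same fit, in 7 lists with 136 tested probe sets of 64 genes. The lists too were chosen with earlier results of these data known. The p-values given for their genes, here and below, are therefore those of the fit over all probe sets and no independent test. In 5 of the lists (123 probe sets) the genes are partners, regulators or pathway neighbours of annexins, and the other lists hold annexin genes outside the members and gastric-type genes. Of these, 5 probe sets of 4 genes passed (3.68%, or 4.07% of the 123, where 7.10% of all tested probe sets passed), 1 higher and 4 lower in 3D. The 4 lower ones were all among kinases and phosphatases that act on annexins (4 of 35 probe sets, median -0.13). In that list 9 of 35 had an unadjusted p under 0.05 by limma, beside 26.1% of all tested probe sets. PTPN11, the phosphatase SHP2, fell on 209896_s_at by 0.55 (SD 0.28, log2), lower in 8 of 8 lines (limma, adjusted p = 0.0201), and on 209895_at by 0.46 (SD 0.35, adjusted p = 0.0470), also in 8 of 8. Its 3 other tested probe sets had -0.22, -0.48 and -0.16 and did not pass. EGFR, a receptor kinase for which ANXA1 is a substrate, fell on 201983_s_at by 0.70 (SD 0.50, adjusted p = 0.0314), lower in 7 of 8 lines. The other tested EGFR probe sets lay between -0.33 and 0.11. TRPM7, a channel and kinase that also phosphorylates ANXA1, fell on 239484_at by 0.45 (SD 0.35, adjusted p = 0.0497) in 7 of 8 lines, with its others between -0.25 and -0.13. The flippase subunit TMEM30A, which helps keep phosphatidylserine on the inner leaflet, rose on 222391_at by 0.55 (SD 0.45, adjusted p = 0.0473) in 7 of 8 lines, and its others had 0.28 and 0.19. The count of 5 depended on the lines included, and over all tested probe sets the share called also varied, between 1.60% (without H358) and 7.39% (without A427). The count was 0 without H460 (1.85% of all), 1 without H23 (2.12%), H661 (3.12%) or H1703 (2.10%), 2 without A427 or H358, 3 without A549 (3.48%) and 5 without H1437 (6.36%). These were not always the same probe sets. Of those named above, PTPN11 209896_s_at was called in each of these fits except that without H460. Without H1437, EGFR and PTPN11 209895_at were lost and CAV2 203323_at and GCA 203765_at, named after their values were seen, were called. SRI 208920_at was called without A549, and S100A6 228923_at without H358. With the 18S level as a covariate the count was 0 (0.00576% of all), with EGFR at -0.31 and TMEM30A at 0.36.

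**Figure D5:**
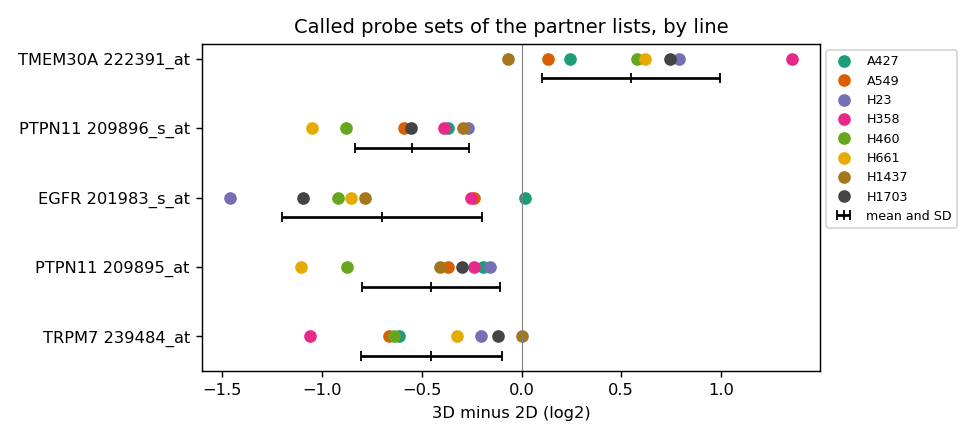
The 5 called probe sets of the gene lists, as 3D minus 2D (log2): 1 point per cell line, and below the points the mean with its SD over 8 lines. Both PTPN11 probe sets lie below 0 in 8 of 8 lines, EGFR and TRPM7 below 0 in 7, and TMEM30A above 0 in 7.

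In the lists other than these kinases and phosphatases, limma called 0 probe sets beside that of TMEM30A. The counts with an unadjusted p under 0.05 given for each list stand against 26.1% of all tested probe sets. The S100 proteins and other direct partners had 0 of 18 (4 with an unadjusted p under 0.05), with a median of 0.04. Sorcin (SRI), a calcium-binding partner of ANXA7, had 0.42 ± 0.34 on 208920_at (limma, adjusted p = 0.0565) and -0.16 ± 0.13 on 208921_s_at, and S100A6 had 0.34 ± 0.34 and -0.07 ± 0.26 on its 2 probe sets. PEF1, a relative of sorcin, had -0.23 ± 0.23. S100A10, the partner of ANXA2, had 0.04 ± 0.33 and 0.03 ± 0.31, and S100A11, a partner of ANXA1, had -0.09 ± 0.61; these genes were named after their values were seen. Membrane repair genes had 0 of 35 (9 with an unadjusted p under 0.05), with the ESCRT subunit CHMP4B at 0.40 ± 0.32 (limma, adjusted p = 0.0565) and 0.36 ± 0.38, and CAV1, which shapes caveolae, at -0.45 ± 0.50 on 203065_s_at. TRIM72, which nucleates repair patches in muscle, had 0.19 ± 0.12. Scramblases and flippases had 1 of 21 called, that of TMEM30A (8 with an unadjusted p under 0.05). Their median was 0.10, with 15 probe sets above 0 and 6 below. The rest had values on both sides of 0, with ATP11B at 0.52 ± 0.50 on 212536_at and -0.40 ± 0.42 on 238811_at, and ATP8A1 at 0.43 ± 0.30.

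Formyl peptide receptors and the phospholipase A2 and prostaglandin genes had 0 of 14 called (0 with an unadjusted p under 0.05). PTGS2, the inducible cyclooxygenase, had 1.05 ± 1.71 on 204748_at, between -1.17 in H460 and 3.78 in A549, PTGES2 had -0.34 ± 0.51 and PTGES3 -0.16 ± 0.14. Gastric-type genes, listed beside ANXA10, had 0 of 7 called (1 with an unadjusted p under 0.05), with the mucins MUC5AC at 0.23 ± 0.27 on 217182_at and MUC6 at -0.14 ± 0.35, and the trefoil peptide TFF1 at 0.53 ± 1.31. MUC5AC also had 0.19 ± 0.36 on 217187_at and 0.44 ± 1.41 on 214303_x_at. On 214303_x_at it lay between -1.02 in H358 and 3.49 in A549. The TFF1 mean came from A549 (3.78) and was 0.06 without it, and that of PTGS2 was 0.66 without A549. Annexin genes outside the members had 0 of 6 called (0 with an unadjusted p under 0.05), among them ANXA9 at 0.36 ± 0.59 and 0.12 ± 0.69, the pseudogene ANXA2P3 at 0.15 ± 0.35 and the ANXA2 receptor gene ANXA2R at -0.11 ± 0.31.

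Markers of leukocytes, fibroblasts, endothelium and epithelial cells had 0 called of 5, 13, 3 and 5 tested probe sets. Of these, 2, 0, 0 and 0 had an unadjusted p under 0.05 by limma, beside 26.1% of all tested probe sets. Their mean levels per array ranged in 3D and 2D from -0.33 to 1.10 and -0.21 to 0.83 for leukocytes, from -0.39 to 4.09 and -0.26 to 4.06 for fibroblasts (highest in H661), from -0.17 to 0.37 and -0.16 to 0.28 for endothelium, and from -5.31 to 4.47 and -5.00 to 4.01 for epithelial cells (lowest in H1703). Ratios carry no absolute level, so the labelled cell type could not be checked beyond these contrasts.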

How the data were processed

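RNA of 8 lung cancer cell lines in 3D and 2D culture was measured on 16 arrays. The authors deposited a log2 ratio for each of 54675 probe sets. On inspection, 63.5% of probe sets have a linear median at their reference (log2 within 0.001 of 0) and 0 lie above it. Software, probe summary and normalisation: not given in the sources used here. Different scaling could move every ratio of an array together. Gene symbols came from the platform annotation of 41097 probe sets with 1 symbol (1801 had several, 11777 none), updated through the RefSeq gene table.

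The 34727 probe sets at their reference entered a linear model (limma 3.58.1, R 4.3.3, eBayes with a variance trend) of cell line and culture, with Benjamini-Hochberg adjustment over all of them and a threshold of 0.05. For 16 of 16 arrays the nearest array was its line's own partner (r = 0.755 to 0.920 between the cultures of a line). Pairing comes from the line named in the labels; replicate numbers are only names and pair nothing. P-values measure the spread over lines, and nothing says whether cultures were repeated. A microarray has no read depth; the number of arrays limits precision.

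The members, gene lists and alternatives were chosen with earlier results of these data known. Named were all annexin probe sets, listed genes with a call, in each list the 3 genes of smallest p, and, as most like each member, the 3 genes with the highest Pearson r over 16 arrays to its tested probe set of the plainest ID suffix (also its representative in counts with 1 probe set per gene by line). Steps were tested on simulated data.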

Additional observations from a re-analysis of the deposited data

Results flagged for a closer look

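In the sets of 8 values (3D, 2D, or their difference, for each of the 19 annexin probe sets, 57 sets in all), a line that lay farther from the others than Dixon's critical value allows was picked out. Chance picks about 1 in 20 independent sets, but the family was taken up with these values known and many sets share arrays, so nothing is read from the number picked, 9, of which 6 were for A549. Of the 9, 5 came from the dim probe sets of ANXA10 and ANXA13, where most other lines lay under the reference and have no order among themselves. For ANXA1 201012_at, H1437 lay low in 3D at -4.69 and in the difference at -2.13. For ANXA4, A549 lay high in 3D at 3.34 on 201301_s_at and at 3.99 on 201302_at. For ANXA10, A549 lay high in 3D at 6.71, and H460 low in the difference at -2.41. For ANXA13, A549 lay high in 3D at 6.37, in 2D at 0.71 and in the difference at 5.66. The sets of a probe set share arrays and the 2 probe sets of ANXA4 read 1 gene, so these are not 9 separate events, and each rests on 1 array per line and culture.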

How the results depend on the processing

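The number of annexin probe sets called for 3D minus 2D was 1 with arrays centred on their medians, with quantile normalization, without a variance trend, without probe sets ending in _s_at or _x_at and with 1 probe set per gene. It was 0 with no filter on dim probe sets, with no replicate block (the cell line left out of this paired design) and with the 18S level as a covariate, where 5, 0 and 0 of them had an unadjusted p under 0.05 by limma. Leaving out each line gave 0 to 1: 1 without A427 or H1437 (ANXA1 233011_at) and without A549 (ANXA5), and 0 without H23, H358, H460, H661 or H1703. For the probe sets of the 7 gene lists the count of 5 became 1 with no filter, 0 with no replicate block, 3 without a variance trend, 0 with the 18S level, 0 without probe sets ending in _s_at or _x_at (18 with an unadjusted p under 0.05), 1 with 1 probe set per gene, and 0 to 5 on leaving out a line. Over all tested probe sets 7.10% were called, 0.0230% with no replicate block and 0.00576% with the 18S level. With no filter the share was 2.00%, where 19 annexin and 182 listed probe sets were tested. It was 7.29% with centred arrays, 5.93% with quantile normalization and 6.40% without a variance trend. Without the suffixes it was 6.20%, and with 1 probe set per gene 6.16%. PTPN11 209896_s_at passed in 11 of 14 alternatives, EGFR in 5 of 14, TMEM30A in 3 of 15, PTPN11 209895_at in 3 of 16 and TRPM7 in 2 of 16, each with its sign kept. For differences between lines the count was 8 of 8 without the suffixes and 7 of 7 with 1 probe set per gene, where fewer probe sets were tested, 15 without the culture term, and 15 to 16 on leaving out a line. The 3D minus 2D mean of each annexin probe set moved by less than its SD over lines in every alternative run; leaving out 1 line turned the sign of means near 0 (ANXA2, ANXA4 201301_s_at, ANXA11 206200_s_at and ANXA1 201012_at, then between -0.11 and 0.05), and the 18S level that of ANXA11 206200_s_at (-0.04). Where a count changed otherwise, the cause was not tested.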

Other observations

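The annexin genes ANXA8 and ANXA8L1 share probe set 203074_at and so fell outside the members. It had 5.59 in 3D and 4.0 in 2D in A549, 3.07 in 3D and -0.05 in 2D in H358, and 0.35 in 3D and 1.43 in 2D in H1437, while the other 5 lines lay between -0.11 and 0.15. The differences of 3D minus 2D were 1.59 in A549, 3.13 in H358 and -1.08 in H1437, with 1 array per line and culture.

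The lines with the lowest ANXA6 had the highest means of the 5 tested epithelial marker probe sets. H358 had marker means of 4.47 in 3D and 4.01 in 2D beside an ANXA6 line mean of -3.75, and H1437 had 3.56 in 3D and 3.51 in 2D beside -2.61. In the other 6 lines the marker means lay between -5.31 and 0.75, and ANXA6 between -0.14 and 0.35. Single markers did not all follow the mean. EPCAM in A427 stood at 3.65 in 3D and 3.37 in 2D, beside an ANXA6 line mean of 0.21, and KRT18 in H23 stood at 0.86 in 3D and 1.28 in 2D, where H358 had 1.13 in 3D and 0.76 in 2D. This was noticed after the values were seen and was not tested.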
